A study of Homo sapiens with 8 samples.

Results

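The response of p53-null colon cancer cells to the small molecule P2 was read from 4 of the 8 arrays of the study. HCT116 is an established human colorectal carcinoma line with an activating mutation of CTNNB1, the gene of beta-catenin, and the p53-/- cells are its derivative without functional p53. The 4 arrays were the 2 of P2-treated p53-/- cells, at 25 µM, and the 2 of untreated p53-/- cells. The other 4 arrays are of P2-treated and untreated p53+/+ cells in the same layout, and their own P2 effect is used only for comparison. They were normalized and fitted together with the first 4, so they also enter the probe filter and the spread behind every p-value. P2 is a code name, the treatment time is not given in the sources used here, and the controls are called untreated with no solvent named, so an effect of P2 and one of solvent or handling cannot be told apart. The labels do not say whether arrays of a group came from separate cultures, nor whether 1 clone of p53-/- cells was used. The p-values rest only on the spread within the groups of the 8 arrays, possibly a technical one. The extraction note in the labels speaks of frozen tissue, while the other labels give a cell line. The gene of p53 is not analysed here.

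Levels are log2 intensities after background correction and normalization, and a P2 effect is the difference in mean level between P2-treated and untreated p53-/- cells. Probes detected above negative controls (detection p under 0.05) on at least 2 of the 8 arrays were tested, 14574 of 24526, standing for 10932 genes. On the 4 p53-/- arrays 12775 to 13998 probes were detected, and the 2 P2 arrays correlated with r = 0.995 and the 2 untreated arrays with r = 0.989 over the tested probes. Of 13 colon epithelial markers with a probe, 6 were detected on all 4 p53-/- arrays (CDH1, CDX2, ELF3, EPCAM, KRT19 and KRT8). Markers of other cells were mostly undetected, with 2 of 10 fibroblast genes (COL1A1, PDGFRA), 2 of 10 leukocyte genes (CD68, LYZ) and 3 of 10 endothelial and erythroid genes (HBA2, HBG1, PECAM1) found on all 4 arrays. The summed intensity of the 12 fibroblast probes was 309 and 321 in P2-treated cells, against 336 and 332 in untreated cells. For the 17 leukocyte probes it was 499.6 and 530.4 in P2-treated cells, against 476 and 493 in untreated cells. For the 12 endothelial and erythroid probes it was 529 and 537 in P2-treated cells, against 783 and 699.8 in untreated cells, and the part of any of these sums in the results was not tested.

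As background, colorectal cancer cells of this kind signal through growth factor receptors and the ERK cascade, and through Wnt, in which beta-catenin drives targets that include inhibitors of the pathway. The p53 protein normally raises genes for cell cycle arrest and death after DNA damage, among them the CDK inhibitor gene CDKN1A and the ubiquitin ligase gene MDM2, which turns p53 itself over. Several of these genes also answer to other transcription factors, so they can be read in cells without p53.

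P2 treatment was accompanied by a broad change in both directions. Limma's moderated test, at a Benjamini-Hochberg adjusted p under 0.05 across the tested probes, called 1722 probes higher (11.8%) and 1984 lower (13.6%) in P2-treated than in untreated p53-/- cells. Of these, 525 rises and 168 falls exceeded 2-fold. One of the controls stood apart: 215 probes (182 genes) lay at least 1 log2 unit lower on untreated replicate 1 than on untreated replicate 2, and 0 lay that far higher. These low probes had a median level of 7.71 in P2-treated p53-/- cells, against 5.33 on untreated replicate 1 and 6.92 on untreated replicate 2. In p53+/+ cells the same probes had medians of 7.70 with P2 and 7.53 without. Thus untreated replicate 2 also lay below the untreated p53+/+ arrays for them, and 147 of the 215 were among the rises.

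The fit was therefore repeated with untreated replicate 2 as the only p53-/- control, whose spread was assumed to equal that of the other groups. For all 1722 rises and 1984 falls the P2 and untreated arrays did not overlap, which fixes the direction of these probes in this fit, and the fit called 1119 probes higher and 1042 lower. Called in the same direction in both fits were 1052 probes higher (7.22%, 868 genes) and 974 lower (6.68%, 830 genes), and below a gene is said to have risen or fallen only if it is among these, unless it is said to have passed with both controls alone. Among the changes over 2-fold, 348 of 525 rises and 150 of 168 falls were still over 2-fold against untreated replicate 2. Of the low probes, 111 remained among the 1052 rises. With 1 probe per gene, the brightest, 10.4% of genes were higher and 14.5% lower against both controls, and 6.48% higher and 6.87% lower in both fits, with a median effect of -0.059 log2 over all genes. These shares are the background for the gene groups.

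**Figure D1:**
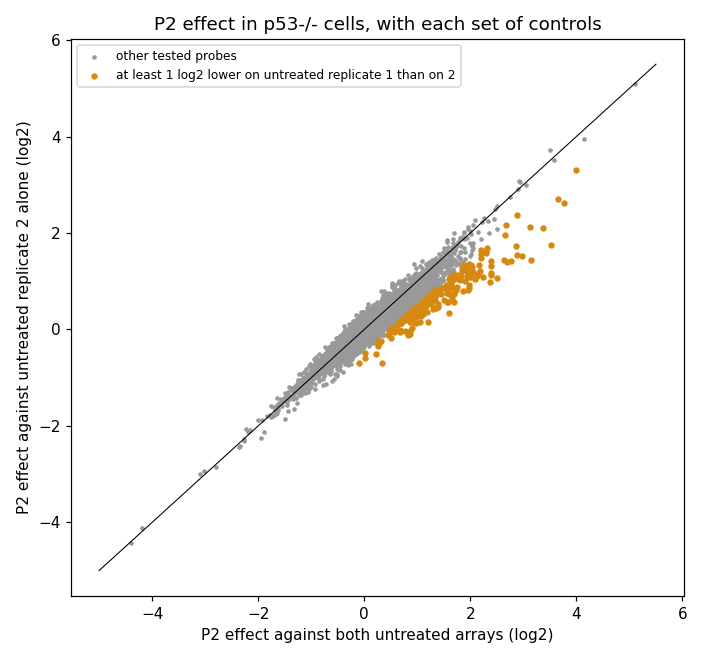
P2 effect of each of the 14574 tested probes in p53-/- cells, against both untreated arrays (x axis, log2) and against untreated replicate 2 alone (y axis, log2), with the line of equality. The 215 probes that were at least 1 log2 unit lower on untreated replicate 1 than on replicate 2 (orange) lie below the line, with a median effect of 1.33 against both controls and 0.64 against replicate 2.

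The largest rise was that of PROM1, the gene of the membrane glycoprotein prominin-1 (CD133) used as a marker of stem and cancer stem cells. Its level was 9.58 and 9.58 on the P2 arrays, against 4.47 and 4.49 on the untreated arrays, where it was not detected, a rise of 5.10 ± 0.10 log2 (SE, n = 2 arrays per group) or at least 26.3-fold (adjusted p = 2.03e-08). "At least" marks a fold against a group in which no array detected the probe, computed from the lowest level that counts as detected. NRIP1, a corepressor of nuclear receptors, stood at 9.16 and 9.10 in P2-treated cells, against 4.81 and 5.19 in untreated cells, and rose by 4.13 ± 0.13 log2 (adjusted p = 5.02e-07). EIF4E3, a member of the family of proteins that bind the mRNA cap, was at 8.52 and 8.56 with P2, against 5.25 and 4.82 without, and rose by 3.50 ± 0.17 log2. In all 3 genes both P2 arrays lay over 2 log2 units above both untreated arrays, a gap larger than the difference within either pair.

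Secreted and immune-related genes followed. LCN2, the iron-siderophore-binding protein lipocalin-2, had 7.74 and 7.76 in P2-treated cells, against 4.66 and 4.75 in untreated cells where it was not detected, and rose by 3.05 ± 0.10 log2, at least 7.42-fold. CASP4, a caspase that senses bacterial lipopolysaccharide inside the cell, had 8.42 and 8.53 in P2-treated cells, against 5.67 and 5.42 in untreated cells, and rose by 2.93 ± 0.13 log2 (adjusted p = 3.32e-06); a second, dimmer CASP4 probe rose by 0.79 log2. GDF15, a stress-induced cytokine of the TGF-beta superfamily, was bright in both groups, with 12.01 and 11.79 in P2-treated cells, against 9.46 and 9.34 in untreated cells, and rose by 2.49 ± 0.13 log2 (adjusted p = 6.59e-06). The arrays of a pair lay close together for these 3 genes, whereas the lack of overlap between groups was shared by every called probe.

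ARRDC4, an arrestin-domain protein that lowers glucose uptake, was at 7.73 and 7.60 with P2, against 4.91 and 4.59 without, where it was undetected, and rose by 2.92 ± 0.14 log2, at least 7.02-fold (adjusted p = 4.60e-06). EHF, an ETS factor of epithelial cells, was at 8.55 and 8.90 with P2, against 5.99 and 5.97 without, and rose by 2.75 ± 0.17 log2. FOXO3, a forkhead factor restrained by AKT, was at 8.40 and 7.94 with P2, against 5.56 and 5.89 without, and rose by 2.45 ± 0.20 log2 (adjusted p = 1.17e-04). The formin gene DIAPH2 rose by 2.89 ± 0.11 log2, at least 5.63-fold, and DPYSL3, a cytosolic protein of growth cones, by 2.47 ± 0.12 log2. Against untreated replicate 2 alone the effects were 3.08 log2 for ARRDC4, 2.75 for EHF, 2.29 for FOXO3, 2.91 for DIAPH2 and 2.50 for DPYSL3, close to those with both controls.

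The remaining 4 of the 15 largest rises rested in part on probes that were low on untreated replicate 1. TRNP1, a nuclear protein known from neural progenitors, was at 10.29 and 10.14 with P2, against 5.55 and 6.91 without, and its effect was 3.99 log2 with both controls and 3.31 against replicate 2. CDC14B, a phosphatase, was at 9.06 and 9.19 with P2, against 4.55 and 6.41 without, with effects of 3.65 and 2.71 log2, while its 2 other probes had effects of -0.39 and -0.49 log2. TNFRSF6B, a decoy receptor for FAS ligand, was at 9.66 and 9.06 with P2, against 4.46 and 6.74 without, with effects of 3.76 and 2.62 log2. In each of these the 2 untreated arrays differed by over 1 log2 unit, and the size of the rise depended on the control. ADAM15, a membrane metalloprotease, had effects of 2.88 and 2.38 log2, and of its other 2 probes the brightest, with 11.24 and 11.18 in P2-treated cells against 10.25 and 10.19 in untreated cells, rose by 0.99 log2.

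Among the falls, TM4SF18, a 4-transmembrane protein of the L6 family, had 4.73 and 4.89 in P2-treated cells, against 9.19 and 9.24 in untreated cells, and fell by 4.41 ± 0.11 log2, 21.2-fold (adjusted p = 1.17e-07). ZBED2, a zinc finger transcription factor, had 5.42 and 5.24 in P2-treated cells, against 9.59 and 9.45 in untreated cells, and fell by 4.19 ± 0.11 log2. GLIS3, a zinc finger transcription factor studied mainly in the pancreas and thyroid, was detected on neither P2 array, with 4.67 and 4.67, against 6.87 and 6.76 in untreated cells, and fell by 2.15 ± 0.12 log2, at least 4.24-fold. None of the 15 largest falls came from a probe that was low on untreated replicate 1.

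TIPARP, a mono-ADP-ribosyltransferase and target of the aryl hydrocarbon receptor, had 8.08 and 7.93 in P2-treated cells, against 10.001 and 9.88 in untreated cells, and fell by 1.93 ± 0.12 log2 (adjusted p = 2.43e-05). SGK1, a kinase downstream of PI3 kinase and glucocorticoids, had 6.56 and 7.02 in P2-treated cells, against 8.92 and 8.67 in untreated cells, and fell by 2.01 ± 0.17 log2. GZMB, the serine protease granzyme B best known from cytotoxic lymphocytes, was undetected with P2 at 4.35 and 4.53, against 6.10 and 6.56 without, and fell by 1.89 ± 0.18 log2, at least 3.03-fold. NAV3, a microtubule-associated protein, fell by 2.20 ± 0.14 log2, and TRIM16L, a relative of the tripartite motif proteins, by 1.96 ± 0.33 log2 with a wider error. The other 7 of the 15 were the signalling and transport genes DNER, NRG1, FGF9, WNT16, WNT3A, BMP4 and SLC2A3, described below with their groups.

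**Figure D2:**
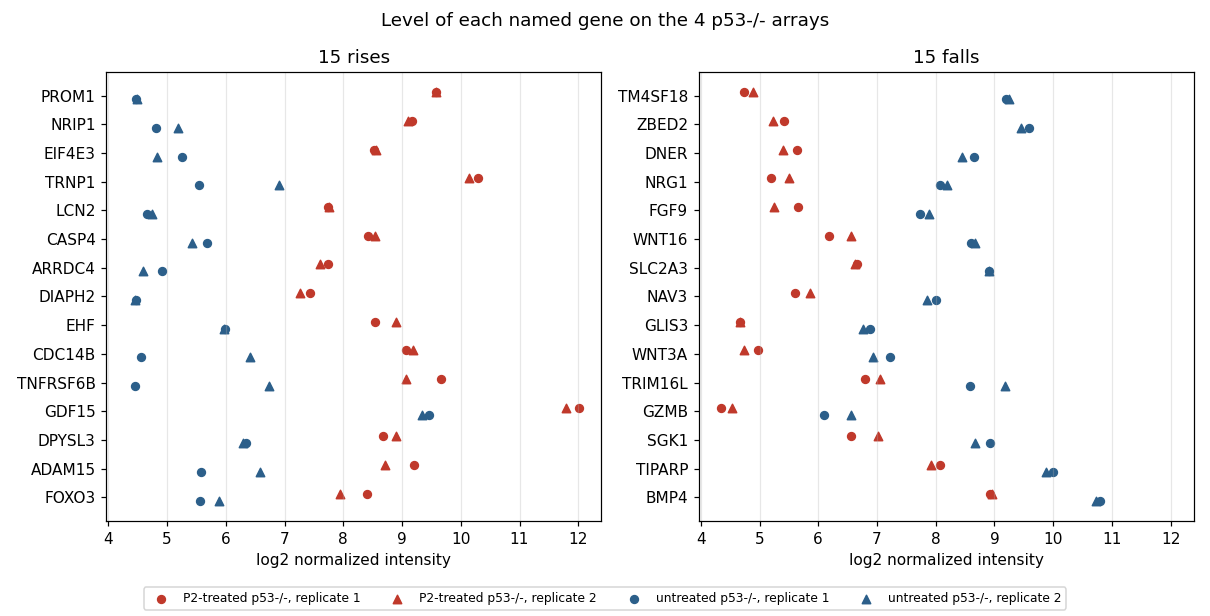
Log2 normalized intensity (x axis) of the 15 genes with the largest rises (left) and falls (right) in p53-/- cells, with P2-treated arrays in red, above untreated arrays in blue, and replicate 1 as circles, replicate 2 as triangles. In all 30 genes the 2 P2 arrays lie on 1 side of the 2 untreated arrays, which the choice of these genes required. The untreated arrays of TRNP1, CDC14B, TNFRSF6B and ADAM15 lie farthest apart among the rises.

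Growth factor ligand genes fell more often than they rose. Of 18 measured, 1 was called higher and 5 lower with both controls, and 1 and 4 in both fits, while the median effect was -0.040 log2, close to that of all genes. NRG1, a ligand of ERBB3 and ERBB4, was at 5.20 and 5.498 with P2, against 8.07 and 8.20 without, and fell by 2.79 ± 0.15 log2 (adjusted p = 1.17e-05). FGF9, a fibroblast growth factor that signals between epithelium and mesenchyme, was at 5.66 and 5.25 with P2, against 7.74 and 7.88 without, and fell by 2.35 ± 0.17 log2 (adjusted p = 5.85e-05). The PDGF chain gene PDGFB fell by 1.04 ± 0.14 log2 and HBEGF, a ligand of EGFR, by 0.77 ± 0.14 log2, and the adjusted p of HBEGF was 0.00571, or 0.0538 without P2 replicate 1. The EGFR ligand genes TGFA and EREG, chosen after their values were seen, had effects of -0.077 and 0.14 log2, neither called.

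The receptors and adaptors that carry these signals had the largest share of falls of the lists with at least 10 measured genes. Of 22 measured, 9 were lower and 5 higher with both controls, 8 lower and 3 higher in both fits, and the median was -0.27 log2. The adaptor gene GAB2 was at 5.56 and 5.61 with P2, against 6.79 and 6.61 without, and fell by 1.12 ± 0.12 log2 (adjusted p = 4.04e-04). The receptor tyrosine kinase gene RET fell by 0.91 ± 0.11 log2, and EGFR was at 7.67 and 7.92 with P2, against 8.68 and 8.53 without, and fell by 0.81 ± 0.12 log2 (adjusted p = 0.0023). A second EGFR probe, not detected in untreated cells, ran the other way with an effect of 0.46 log2, so the EGFR probes disagree. IRS1, an adaptor of the insulin and IGF receptors, fell by 0.71 ± 0.11 log2.

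In the opposite direction MET, the receptor of hepatocyte growth factor, was at 9.28 and 9.22 with P2, against 8.26 and 8.24 without, and rose by 1.00 ± 0.12 log2 (adjusted p = 8.33e-04). AXL rose by 0.66 ± 0.11 log2 on its brightest probe, while a second probe had an effect of -0.30 log2. FGFR4 rose by 0.64 ± 0.13 log2, and its adjusted p was 0.00699, or 0.0545 without P2 replicate 1.

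Genes that ERK signalling switches on and that in part dampen it gave a mixed picture. Of 25 measured, 3 were higher and 4 lower with both controls, 2 and 4 in both fits, and the median was -0.060 log2. The largest effect in the list, chosen after its value was seen, was that of DUSP4, 3.13 log2 higher with both controls. That effect differed strongly between the 2 sets of controls. SPHK1, the sphingosine kinase gene, was at 5.21 and 5.39 with P2, against 6.61 and 6.55 without, and fell by 1.28 ± 0.11 log2 (adjusted p = 1.48e-04). FOSL1, a FOS-related subunit of AP-1, fell by 0.66 ± 0.13 log2 and MYEOV by 0.60 ± 0.10 log2. DUSP6, the phosphatase that switches off ERK, fell by 0.45 ± 0.13 log2 (adjusted p = 0.0356), a call lost in 10 of the alternatives at adjusted p of 0.0508 to 0.189, among them those without either P2 array or without untreated replicate 2, whereas a second DUSP6 probe fell by 0.65 log2. Without P2 replicate 2 the adjusted p of FOSL1 was 0.0549. The sprouty genes SPRY1, SPRY2 and SPRY4, also chosen after their values were seen, had effects of -0.26, -0.035 and -0.38 log2 and were not called in both fits.

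In the Wnt pathway, 2 of 22 measured genes were higher and 7 lower with both controls, 1 and 6 in both fits, with a median of -0.14 log2. Both ligand genes among the largest falls belong here: WNT16 was at 6.18 and 6.56 with P2, against 8.59 and 8.68 without, and fell by 2.26 ± 0.14 log2, and WNT3A was at 4.98 and 4.74 with P2, against 7.23 and 6.93 without, and fell by 2.22 ± 0.14 log2 (adjusted p = 3.01e-05). A second, dim WNT16 probe had an effect of -0.12 log2. AXIN2, a scaffold of the complex that degrades beta-catenin and a direct target of the pathway, was at 7.81 and 7.74 with P2, against 9.16 and 8.88 without, and fell by 1.24 ± 0.12 log2 (adjusted p = 2.78e-04). NKD1, another inhibitor that the pathway induces, fell by 1.22 ± 0.12 log2. Thus ligands and feedback inhibitors were both among the genes that fell.

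Notch genes showed a similar count, with 5 of 19 lower and 2 higher with both controls, 5 and 1 in both fits, and a median of -0.16 log2. DNER, a transmembrane protein related to Notch ligands, was at 5.64 and 5.41 with P2, against 8.65 and 8.45 without, and fell by 3.03 ± 0.13 log2 (adjusted p = 2.65e-06). The ligand genes JAG2 and JAG1 fell by 1.15 ± 0.12 and 1.06 ± 0.14 log2 and the receptor gene NOTCH3 by 0.72 ± 0.12 log2, while a second JAG2 probe had an effect of -0.45 log2 that was not called. HES1 and HEY1, transcriptional targets of Notch chosen after their values were seen, had effects of -0.31 and -0.33 log2, neither called in both fits, so the falls named here are of ligands and a receptor.

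Of 22 measured TGF-beta and BMP genes, 3 were higher and 4 lower with both controls, and 3 and 3 in both fits. The ligand gene BMP4 was at 8.93 and 8.95 with P2, against 10.80 and 10.74 without, and fell by 1.83 ± 0.11 log2 (adjusted p = 1.69e-05); a dimmer BMP4 probe, low on untreated replicate 1, had effects of 0.34 with both controls and -0.70 against replicate 2. BAMBI, a decoy receptor, fell by 0.83 ± 0.12 log2 and SMAD6, an inhibitory SMAD, by 0.64 ± 0.13 log2. The receptor gene TGFBR2 was at 8.63 and 8.67 with P2, against 7.77 and 7.71 without, and rose by 0.91 ± 0.11 log2 (adjusted p = 7.28e-04). A second, dim TGFBR2 probe had an effect of 0.10 log2 that was not called. The coreceptor gene TGFBR3 rose by 0.88 ± 0.18 log2 and the BMP target ID2 by 0.85 ± 0.11 log2. Without P2 replicate 1 the adjusted p was 0.0643 for SMAD6 and 0.0807 for TGFBR3.

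Targets of the coactivator YAP and its partner TEAD had 3 of 17 genes higher and 5 lower with both controls, 2 and 3 in both fits. CCN2, the connective tissue growth factor gene, was at 6.58 and 6.49 with P2, against 8.16 and 8.16 without, and fell by 1.63 ± 0.11 log2 (adjusted p = 3.11e-05). CCN1 fell by 0.60 ± 0.14 log2 and PTPN14, a phosphatase that restrains YAP, by 0.60 ± 0.13 log2, and without P2 replicate 2 their adjusted p was 0.0784 and 0.0688. CCN2 and CCN1 are also among the 29 measured AP-1 and immediate early genes, of which 7 were lower and 4 higher with both controls and 6 and 2 in both fits. The others named from that list, KLF4, a Krueppel-like factor of differentiating colon epithelium, and SGK1, fell by 0.86 ± 0.13 and 2.01 ± 0.17 log2.

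**Figure D3:**
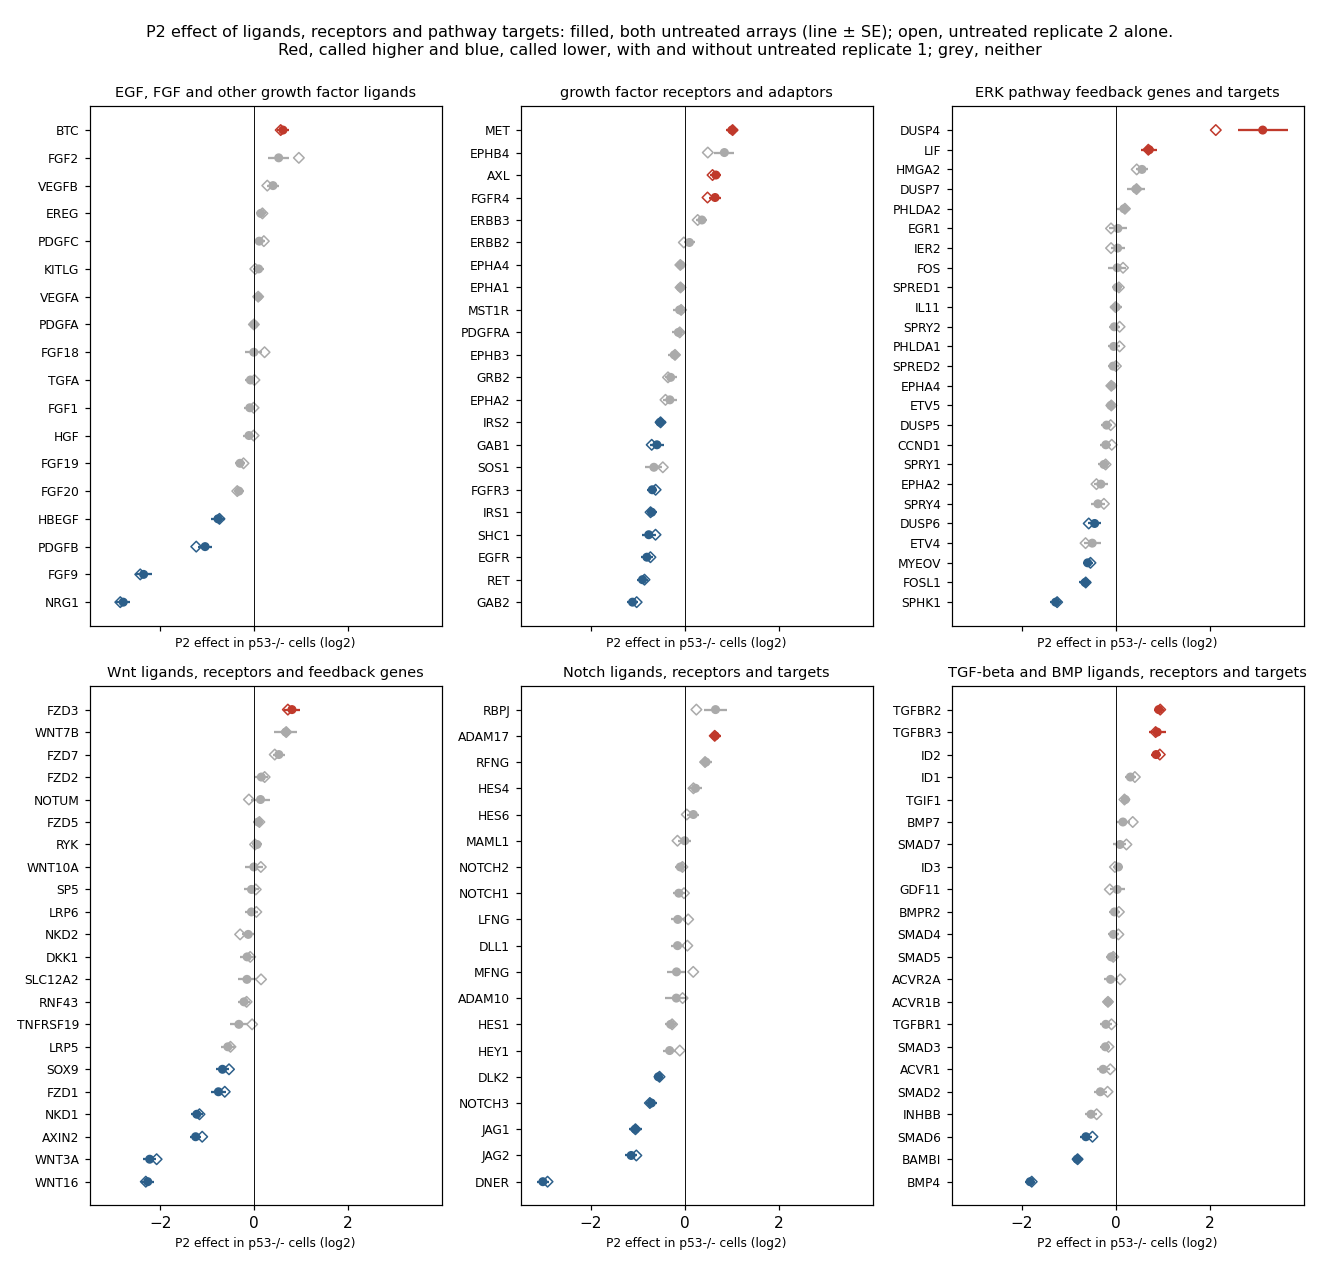
P2 effect (x axis, log2) of each measured gene in 6 signalling lists in p53-/- cells, filled circles against both untreated arrays with a line of ± 1 SE and open diamonds against untreated replicate 2 alone. Blue genes fell and red genes rose in both fits, grey genes did neither; NRG1, FGF9, WNT16, WNT3A, DNER and BMP4 are the lowest of their lists, and DUSP4, with an effect of 3.13 log2, differs most between the 2 sets of controls.

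The CDK inhibitor gene CDKN1A rose although the cells lack p53. Its main probe had 11.86 and 11.73 in P2-treated cells, against 10.06 and 10.07 in untreated cells, a rise of 1.73 ± 0.11 log2 or 3.32-fold (adjusted p = 2.59e-05), and a second probe rose by 1.48 log2. MDM2 was near the detection limit, with 4.81 and 4.89 in P2-treated cells, against 4.797 and 5.05 in untreated cells, and its effect of -0.074 ± 0.12 log2 was not called (adjusted p = 0.677).

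Of 30 measured genes of the DNA damage response that p53 can raise, 13 were higher and 1 lower with both controls, 11 and 1 in both fits, with a median of 0.29 log2. This was the highest share of rises in both fits among the lists with at least 10 measured genes. Beside GDF15, ZMAT3, an RNA-binding protein, was at 9.17 and 8.80 with P2, against 6.97 and 7.47 without, and rose by 1.77 ± 0.24 log2 (adjusted p = 0.00134). TP53INP1, a nuclear stress protein, was at 7.77 and 7.77 with P2, against 6.71 and 6.45 without, and rose by 1.19 ± 0.12 log2 (adjusted p = 2.78e-04). PLAU, the urokinase gene, rose by 1.27 ± 0.12 log2. The polo-like kinase gene PLK2, chosen after its value was seen as the 1 fall, was lower by 1.26 log2.

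Of 33 measured apoptosis regulators, 10 were higher and 4 lower with both controls, but 4 and 1 in both fits. Beside CASP4, the death receptor gene TNFRSF10A rose by 0.95 ± 0.20 log2, the pore-forming BAX by 0.91 ± 0.21 log2 and the BH3-only gene HRK by 0.49 ± 0.13 log2. Each of these 3 calls was lost without P2 replicate 1, with effects of 0.76 log2 for TNFRSF10A, 0.86 for BAX and 0.52 for HRK. The BAX call was also lost without P2 replicate 2. That of HRK was lost in 5 alternatives, among them median scaling (adjusted p = 0.0765) and the fit of only the p53-/- arrays (adjusted p = 0.0701). Of the 2 other BAX probes 1 had an effect of 1.16 log2 and 1 of -0.066.

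Of 38 mitosis genes, 10 were lower and 0 higher with both controls, and 3 and 0 in both fits, where 7.89% lower is near the 6.87% of all genes. The median was -0.16 log2. At an unadjusted p under 0.05 the counts were 13 lower and 0 higher. The share of all genes at that threshold is not given here, so the unadjusted counts have no background. CENPF, a kinetochore protein of G2 and M phase, was at 9.08 and 9.13 with P2, against 9.91 and 9.86 without, and fell by 0.78 ± 0.15 log2 (adjusted p = 0.00623). BIRC5, or survivin, was at 9.30 and 9.34 with P2, against 10.26 and 9.89 without, and fell by 0.76 ± 0.15 log2, and SGO1, which protects cohesion of sister centromeres, fell by 0.47 ± 0.11 log2. Without P2 replicate 1 the adjusted p of BIRC5 was 0.0575 and that of SGO1 0.078. Of 37 genes of DNA replication, 7 were higher and 1 lower with both controls and 3 and 0 in both fits, where 8.11% higher is near the 6.48% of all genes, and the lists were not tested against each other. The replication genes GINS4, ORC1 and ORC6 rose by 0.79 ± 0.15, 0.56 ± 0.13 and 0.53 ± 0.13 log2. With median scaling ORC1 and ORC6 had adjusted p of 0.0518 and 0.198. Both calls were also lost without P2 replicate 1, with effects of 0.61 and 0.42 log2, and that of ORC1 without P2 replicate 2, with an effect of 0.51 log2. Cyclins and cyclin-dependent kinases had 2 higher and 5 lower of 24 with both controls, and 2 and 2 in both fits.

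The glucose transporter genes SLC2A1 and SLC2A3 fell, while the 2 other transporters measured, SLC2A8 and SLC2A12, named after their values were seen, had effects of 0.066 and 0.25 log2 and were not called. SLC2A1, the ubiquitous transporter GLUT1, was at 9.13 and 9.04 with P2, against 10.73 and 10.87 without, and fell by 1.72 ± 0.11 log2 (adjusted p = 2.59e-05). SLC2A3, the high-affinity transporter GLUT3, was at 6.65 and 6.63 with P2, against 8.90 and 8.90 without, and fell by 2.26 ± 0.10 log2 (adjusted p = 4.18e-06). ENO2, an enolase gene, fell by 0.77 ± 0.12 log2. Of the 25 measured genes of glycolysis and glucose transport, 6 were lower and 1 higher with both controls, 3 and 1 in both fits, and the median was -0.0025 log2.

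Among 23 measured hypoxia targets, 6 were higher in both fits and 1 lower, with 6 and 5 with both controls. With median scaling 3 were higher and 2 lower, and the median effect as reported was 0.034 log2. SLC2A1, SLC2A3 and ENO2, which fell, were counted with glycolysis and glucose transport and not in this list, so its counts depend on that choice. ADM, the vasodilator peptide adrenomedullin, was at 10.84 and 10.70 with P2, against 9.62 and 9.78 without, and rose by 1.07 ± 0.11 log2 (adjusted p = 3.60e-04). WSB1, a subunit of a ubiquitin ligase, rose by 1.00 ± 0.16 log2, FAM162A by 0.77 ± 0.17 log2 and the collagen prolyl hydroxylase gene P4HA1 by 0.60 ± 0.11 log2. The 1 fall, named after its value was seen, was HIF1A, a subunit of the hypoxia-inducible factor itself, lower by 1.01 log2. FAM162A lost its call without P2 replicate 1 (adjusted p = 0.0694), and P4HA1 with median scaling (adjusted p = 0.129); a second P4HA1 probe had an effect of 0.0052 log2.

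Several sterol genes rose. Of 23 measured genes of cholesterol synthesis, uptake and export, 8 were higher and 1 lower with both controls, 4 and 1 in both fits, with a median of 0.16 log2. ABCA1, which exports cholesterol, was at 5.94 and 6.001 with P2, against 4.58 and 4.51 without, undetected there, and rose by 1.42 ± 0.10 log2, at least 2.16-fold (adjusted p = 4.89e-05). INSIG1, which holds back the activation of sterol-responsive transcription factors, was at 7.15 and 7.01 with P2, against 6.11 and 5.90 without, and rose by 1.07 ± 0.13 log2. The synthesis enzymes SQLE and CYP51A1 rose by 0.92 ± 0.11 and 0.88 ± 0.15 log2.

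Among 24 genes of fatty acid and glycerolipid synthesis, 4 were higher and 4 lower with both controls and 4 and 2 in both fits, and with median scaling 1 was higher and 3 lower. The desaturase genes FADS1 and SCD rose by 0.76 ± 0.11 and 0.61 ± 0.13 log2, the transcription factor gene SREBF1 by 0.58 ± 0.11 log2 and the elongase gene ELOVL6 by 0.51 ± 0.11 log2. The 2 falls, named after their values were seen, were ACSL5, an acyl-CoA synthetase, at 10.32 and 10.42 with P2, against 11.47 and 11.45 without, by 1.09 ± 0.10 log2, and PLIN2, a coat protein of lipid droplets, by 0.53 ± 0.11 log2. The fall of ACSL5 was the largest effect in the list, and without P2 replicate 1 or 2 the adjusted p of PLIN2 was 0.0516 and 0.0518. A second SREBF1 probe rose by 1.77 log2. With median scaling the adjusted p was 0.0554 for SCD, 0.15 for SREBF1 and 0.236 for ELOVL6.

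Stress pathways gave single genes rather than groups. In the ATF4 list, 7 of 27 genes were higher and 3 lower with both controls, 3 and 1 in both fits, with a median of -0.043 log2. DDIT4, an inhibitor of mTORC1, was at 10.70 and 10.51 with P2, against 9.26 and 9.28 without, and rose by 1.33 ± 0.12 log2 (adjusted p = 2.00e-04). SLC3A2, the heavy chain of amino acid transporters, was at 8.12 and 7.97 with P2, against 4.42 and 6.87 without, a probe low on untreated replicate 1 whose effect was 2.40 log2 with both controls and 1.17 against replicate 2. PCK2, a mitochondrial enzyme of gluconeogenesis, rose by 0.59 ± 0.12 log2, and its 2 other probes had effects of 0.66 and 0.24 log2, neither called. The PCK2 probe with 0.66 was low on untreated replicate 1 and had an effect of -0.054 log2 against replicate 2. SLC3A2 lost its call in 5 alternatives. Among them were robust moderation with a variance trend (adjusted p = 0.121) and the fits without P2 replicate 1 or 2, with effects of 2.32 and 2.47 log2. PCK2 lost its call with median scaling (adjusted p = 0.0956) and without P2 replicate 2, with an effect of 0.47 log2 in each.

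Of the 24 genes of endoplasmic reticulum folding, 0 were higher and 4 lower with both controls, and 2 lower in both fits, with 0 higher and 8 lower at an unadjusted p under 0.05. Limma called 0 of the 19 measured aminoacyl-tRNA synthetase genes, with 1 higher and 1 lower at an unadjusted p under 0.05. The unadjusted counts of both lists have no background, since the share of all genes at that threshold is not given. In the list of NRF2 targets and antioxidant enzymes, 6 of 28 were higher and 3 lower with both controls, 3 and 1 in both fits: AKR1C3, an aldo-keto reductase, rose by 0.89 ± 0.12 log2, the peroxidase gene GPX1 by 0.74 ± 0.12 log2 and the transketolase gene TKT by 0.69 ± 0.11 log2. Heat shock chaperones had 1 of 20 higher and 3 lower, and metallothionein and zinc transporter genes 1 of 18 higher and 2 lower, with both controls. Of 6 measured genes of the aryl hydrocarbon receptor pathway, 3 were lower, 1 of them (TIPARP) in both fits.

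Genes of protein synthesis changed little as groups. Among 51 cytosolic ribosomal protein genes, 4 were higher and 3 lower with both controls, and 0 and 1 in both fits. Of 51 mitochondrial ribosomal protein genes, 6 were higher and 0 lower with both controls. In both fits 4 were higher, where 7.84% is near the 6.48% of all genes. At an unadjusted p under 0.05, for which no share of all genes is given, 9 were higher and 1 lower. MRPL20 rose by 1.22 ± 0.22 log2 and MRPL1 by 0.64 ± 0.12 log2, and MRPS34 and MRPL12, with effects of 1.90 and 1.14 log2, had 1.00 and 0.69 against untreated replicate 2. MRPS34 lost its call in 4 alternatives. Among them were robust moderation with a variance trend (adjusted p = 0.0966) and the fits without P2 replicate 1 or 2, with effects of 1.83 and 1.97 log2. MRPL12 lost its call without P2 replicate 1, with an effect of 0.98 log2, and MRPL1 with median scaling (adjusted p = 0.0894). Of 46 splicing genes, 2 were higher and 7 lower with both controls. In both fits 1 was higher and 3 lower, where 6.52% lower is near the 6.87% of all genes. HNRNPR, SF3B3 and SF3B2 were lower by 0.64 ± 0.12, 0.60 ± 0.17 and 0.53 ± 0.11 log2. All 3 calls were lost without P2 replicate 1, at adjusted p of 0.0531, 0.21 and 0.0593 in the same order.

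Oxidative phosphorylation subunits had 4 of 45 higher and 0 lower with both controls, and 1 higher in both fits. At an unadjusted p under 0.05, again without a share of all genes, 5 were higher and 1 lower. Proteasome subunits had 2 of 29 higher and 4 lower, and ribosome biogenesis genes 2 of 32 higher and 3 lower. In the list of autophagy and lysosome genes, 5 of 36 were higher and 6 lower with both controls, 2 and 5 in both fits. The autophagy genes ULK1, a kinase that starts the process, ATG4A, MAP1LC3B, a coat protein of autophagosomes, and WIPI1 fell by 0.67 ± 0.13, 0.59 ± 0.13, 0.55 ± 0.11 and 0.48 ± 0.10 log2, while the lysosomal protease genes CTSD and CTSB, chosen after their values were seen as the 2 rises, had effects of 1.97 and 0.98 log2, that of CTSD being 1.09 against untreated replicate 2. Without P2 replicate 1 the adjusted p was 0.1 for CTSD, 0.0822 for ATG4A, 0.0542 for MAP1LC3B and 0.0775 for WIPI1.

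Interferon-stimulated and antigen presentation genes rose more often than they fell. Of 36 measured, 18 were higher and 3 lower with both controls, 12 and 1 in both fits, and the median of 0.37 log2 was the highest of the lists with at least 10 measured genes. With median scaling of the arrays, which lowered the median of all genes to -0.14, 9 were higher and 1 lower and the median was 0.27 log2. HLA-E, a class I molecule that presents leader peptides, was at 8.58 and 8.49 with P2, against 7.07 and 7.07 without, and rose by 1.46 ± 0.13 log2 (adjusted p = 1.59e-04). BST2, or tetherin, which holds budding virions on the cell surface, was at 6.19 and 6.13 with P2, against 5.12 and 4.76 without, and rose by 1.22 ± 0.14 log2 (adjusted p = 7.44e-04). IFIT2, which binds viral RNA, rose by 0.98 ± 0.15 log2 and PARP9 by 0.75 ± 0.15 log2, with 0.0621 as the adjusted p of PARP9 without P2 replicate 2. The levels of BST2, IFIT2 and PARP9 lay between 4.76 and 6.43 on all 4 arrays, low on the scale of this array.

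Because these genes share a known type of promoter element, the 300 bases around the annotated start (250 before, 50 after) were searched in RefSeq sequences of GRCh38.p14 for the interferon-stimulated response element taken as 2 copies of GAAA with any 2 bases between them, on both strands and with overlaps allowed. Of the 12 genes that rose in both fits, 10 had a promoter entry and 8 of these (80.0%) held the element; of the other 24 measured members, 21 had an entry and 15 (71.4%) held them. Over all 35116 promoters the share was 3.57%. The 250 bases before the start are shown for 4 of the risen genes as examples of the element, chosen after the values were seen, 5′ to 3′ along the gene with the matches in capitals: BST2 (chr19:17405631-17405880, minus strand), IFIT3 (chr10:89327747-89327996, plus strand), IFI6 (chr1:27672193-27672442, minus strand) and IFI27 (chr14:94110486-94110735, plus strand).
BST2: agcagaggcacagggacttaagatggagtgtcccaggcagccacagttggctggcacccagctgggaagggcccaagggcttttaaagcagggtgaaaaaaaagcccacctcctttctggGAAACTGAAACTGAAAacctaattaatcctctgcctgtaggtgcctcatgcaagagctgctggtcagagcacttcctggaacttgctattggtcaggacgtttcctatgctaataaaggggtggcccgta
IFIT3: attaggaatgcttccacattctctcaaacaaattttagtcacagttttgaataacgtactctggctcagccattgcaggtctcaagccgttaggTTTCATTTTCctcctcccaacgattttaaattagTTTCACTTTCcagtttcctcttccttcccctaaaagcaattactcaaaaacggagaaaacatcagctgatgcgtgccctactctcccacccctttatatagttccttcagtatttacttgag
IFI6: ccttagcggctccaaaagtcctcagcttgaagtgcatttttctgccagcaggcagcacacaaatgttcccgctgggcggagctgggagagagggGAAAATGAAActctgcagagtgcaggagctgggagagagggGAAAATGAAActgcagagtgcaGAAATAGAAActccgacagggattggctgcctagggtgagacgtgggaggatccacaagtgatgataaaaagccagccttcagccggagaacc
IFI27: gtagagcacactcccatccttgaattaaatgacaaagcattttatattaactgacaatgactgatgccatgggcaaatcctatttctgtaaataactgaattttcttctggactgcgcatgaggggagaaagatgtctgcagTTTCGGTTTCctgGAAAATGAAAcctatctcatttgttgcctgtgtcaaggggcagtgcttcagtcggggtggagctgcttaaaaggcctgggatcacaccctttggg
The match nearest to the start ended 114 bases before it in BST2, 112 in IFIT3, 83 in IFI6 and 85 in IFI27; capitals read TTTC where the match lies on the other strand. Their P2 effects were 1.22 ± 0.14 log2 for BST2, 0.71 ± 0.13 for IFI6, 0.63 ± 0.11 for IFIT3, undetected in untreated cells and at least 1.28-fold higher, and 0.58 ± 0.17 for IFI27. The call of IFI27 was lost in 8 of the alternatives, at adjusted p of 0.0515 to 0.145, among them those without either P2 array or without untreated replicate 2. That of IFI6 was lost with median scaling and without P2 replicate 1, at adjusted p of 0.0508 and 0.0516. The element was also frequent among the members that did not rise in both fits, and a match describes letters only.

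Epithelial genes rose more often than they fell. Of 35 measured genes of junctions, keratins and epithelial regulators, 11 were higher and 1 lower with both controls, 8 and 1 in both fits, with a median of 0.088 log2 that turned to -0.018 with median scaling, under which 8 were higher and 1 lower. ELF3, an ETS factor of epithelial differentiation, was at 8.82 and 8.98 with P2, against 7.49 and 7.47 without, and rose by 1.42 ± 0.13 log2 (adjusted p = 1.64e-04). The desmosomal genes PKP3 and DSG2 rose by 1.99 ± 0.29 and 1.64 ± 0.38 log2. DSG2 was low on untreated replicate 1, had an effect of 0.90 log2 against replicate 2, and lost its call without P2 replicate 1 (adjusted p = 0.102).

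Stem and progenitor markers had 3 of 14 genes higher and 4 lower with both controls, 3 and 2 in both fits. Beside PROM1, LRIG1, a negative regulator of ERBB receptors in intestinal stem cells, was at 6.83 and 6.99 with P2, against 5.53 and 4.92 without, and rose by 1.68 ± 0.19 log2 (adjusted p = 5.88e-04). The RNA-binding gene MSI2 rose by 0.61 ± 0.11 log2 on its brightest probe, while 1 of its 2 other probes had an effect of -0.48 log2, so MSI2 is uncertain, and with median scaling its adjusted p was 0.0512. SOX9 and KLF4 were the 2 that fell, SOX9, named after its value was seen, by 0.67 ± 0.14 log2, with an adjusted p of 0.0546 without P2 replicate 2.

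Of 19 genes of mesenchymal transition and matrix, 5 were higher and 8 lower with both controls, 4 and 2 in both fits. The integrin gene ITGA2 was at 8.59 and 8.07 with P2, against 6.35 and 6.88 without, and rose by 1.71 ± 0.23 log2. TWIST1, a transcription factor of mesenchyme, rose by 1.12 ± 0.13 log2 and the metalloprotease gene MMP7 by 0.75 ± 0.13 log2. Both falls, named after their values were seen, were larger than 1 log2 unit: the intermediate filament gene VIM by 1.52 ± 0.15 and the matrix glycoprotein gene THBS1 by 1.41 ± 0.19 log2. The list thus held named mesenchymal genes in both directions, TWIST1 higher and VIM lower.

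Cytoskeletal genes had 3 of 34 higher and 6 lower with both controls, 3 and 4 in both fits. The smooth muscle actin gene ACTA2 was at 8.64 and 8.71 with P2, against 6.97 and 6.85 without, and rose by 1.76 ± 0.11 log2 (adjusted p = 2.59e-05). TUBB2A, a beta-tubulin, fell by 1.12 ± 0.11 log2, and CNN2, a calponin, by 0.68 ± 0.13 log2. Second probes of CNN2 and TUBB6 had effects of 1.59 and 1.39 log2 and were low on untreated replicate 1, so their falls, 0.68 and 0.54 log2 on the brightest probe, are uncertain, and without P2 replicate 2 the adjusted p of TUBB6 was 0.0869.

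The calcium-binding S100 proteins and annexins went both ways, with 4 of 20 higher and 4 lower with both controls, 4 and 3 in both fits. S100A4, which is associated with motility, was at 11.65 and 11.67 with P2, against 9.38 and 9.64 without, and rose by 2.15 ± 0.15 log2 (adjusted p = 4.36e-05), as did its second probe by 2.33 log2. ANXA10, an annexin of gastric epithelium, was at 8.79 and 8.96 with P2, against 10.02 and 9.995 without, and fell by 1.13 ± 0.12 log2. ANXA1 and S100A10 fell by 0.75 ± 0.11 and 0.68 ± 0.10 log2, while ANXA2, the partner of S100A10, rose by 0.46 ± 0.11 log2. The ANXA2 call was lost in 4 alternatives. Its effect was 0.33 log2 with median scaling (adjusted p = 0.263), 0.40 without P2 replicate 1 and 0.39 without untreated replicate 2.

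**Figure D4:**
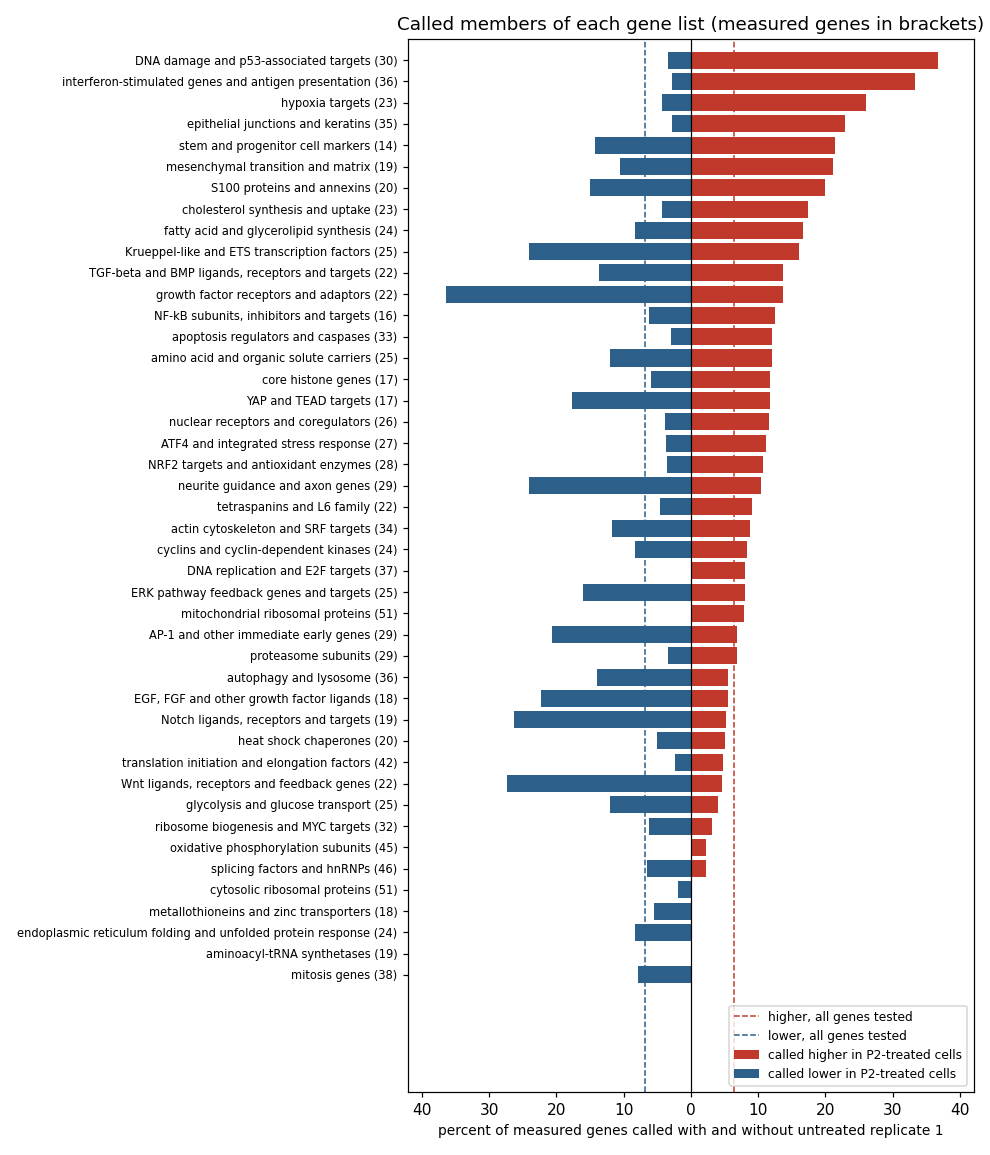
Share of measured genes (x axis, percent) called in both fits in each of the 44 gene lists with at least 10 measured genes in p53-/- cells, with rises to the right in red and falls to the left in blue; dashed lines mark the shares of all 10932 genes, 6.48% higher and 6.87% lower. The lists of p53-associated targets (11 of 30 higher) and interferon genes (12 of 36 higher) reach farthest right, and growth factor receptors and adaptors (8 of 22 lower) farthest left.

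Among Krueppel-like and ETS transcription factors, 4 of 25 were higher in both fits (EHF, ELF3, ERF and ETV6) and 6 lower. ERF, a repressor of ETS targets, rose by 1.08 ± 0.18 log2 and ETV6 by 0.54 ± 0.11 log2, and the adjusted p of ETV6 was 0.0926 with median scaling and 0.0575 without P2 replicate 1. KLF12 was at 5.36 and 5.49 with P2, against 6.87 and 6.63 without, and fell by 1.32 ± 0.12 log2 (adjusted p = 2.28e-04), and ELK3 was at 5.75 and 5.78 with P2, against 7.11 and 6.94 without, and fell by 1.26 ± 0.11 log2 (adjusted p = 1.27e-04). ETS2 and KLF6 fell by 0.78 ± 0.11 and 0.75 ± 0.12 log2.

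Nuclear receptors and their coregulators had 3 of 26 higher and 1 lower in both fits, with LCOR, a ligand-dependent corepressor, at 8.09 and 7.60 with P2, against 5.90 and 5.81 without, a rise of 1.99 ± 0.16 log2 (adjusted p = 1.23e-04). The thyroid hormone receptor gene THRA rose by 1.33 ± 0.21 log2, while a second, dim probe had an effect of -0.0056 log2. NRIP1 and LCOR, the 2 corepressors among the 3, had the larger effects.

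Solute carrier genes had 5 of 25 higher and 5 lower with both controls, 3 and 3 in both fits. SLC1A3, a glutamate and aspartate transporter, was at 7.07 and 7.33 with P2, against 4.98 and 4.90 without, and rose by 2.26 ± 0.12 log2 (adjusted p = 7.81e-06). SLC38A1, a glutamine transporter, rose by 0.71 ± 0.11 log2, and SLC7A2, a carrier of arginine and lysine, fell by 0.95 ± 0.15 log2.

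Genes of axon guidance, which also act in epithelial and tumour cells, had 10 of 29 lower and 4 higher with both controls, 7 and 3 in both fits, with a median of -0.21 log2. SEMA3A, a repulsive semaphorin, was at 6.34 and 6.75 with P2, against 7.75 and 7.61 without, and fell by 1.14 ± 0.15 log2 (adjusted p = 0.00118). The adhesion molecule gene L1CAM fell by 0.99 ± 0.15 log2, although its second probe had an effect of -0.078, and SEMA3C by 0.95 ± 0.18 log2, a call of SEMA3C that was lost without P2 replicate 1 (adjusted p = 0.0574). SEMA3E was at 7.24 and 6.44 with P2, against 5.23 and 5.53 without, and rose by 1.46 ± 0.24 log2, with the 2 P2 arrays farther apart than the untreated ones. The netrin receptor gene UNC5B rose by 1.10 ± 0.23 log2, at least 1.94-fold.

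Detection calls give a second readout. Over the 14574 tested probes, 480 (3.29%, 412 genes) were detected on both P2 arrays and neither untreated array, and 100 (0.686%, 83 genes) on both untreated arrays and neither P2 array. Of the 480 gained, 195 were also called higher and 117 in both fits; of the 100 lost, 62 were called lower and 40 in both fits. Untreated replicate 1 had the fewest detected probes of the 4 arrays. With 1 array left out the gained count was 620 (without untreated replicate 1) to 1041 (without untreated replicate 2) and the lost count 139 (without untreated replicate 2) to 233 (without untreated replicate 1).

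Beside PROM1, LCN2, ARRDC4 and DIAPH2, the largest gain was SYK, a kinase of immune receptor signalling that epithelial cells also express, at 6.71 and 6.77 with P2, against 4.83 and 4.47 without, a rise of 2.09 ± 0.13 log2 or at least 3.69-fold. The largest losses beside GLIS3 and GZMB were DACT1, a modulator of Wnt signalling, SNAP25, a synaptic fusion protein, and ANGPT2, a ligand of the TIE2 receptor. DACT1 was at 4.63 and 4.48 with P2, against 6.24 and 6.08 without, and fell by 1.61 ± 0.12 log2, at least 2.69-fold, with a second probe lower by 1.77 log2. SNAP25 fell by 1.57 ± 0.11 log2 and ANGPT2 by 1.54 ± 0.11 log2, at least 2.64-fold and at least 2.55-fold. A second SNAP25 probe was lower by only 0.45 log2 and stayed detected with P2, so the loss of detection holds for 1 SNAP25 probe. In bulk RNA of a culture, fewer cells that express a gene and less RNA per cell cannot be told apart.

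The p53+/+ arrays show what these genes did where p53 was present. There the test called 832 probes higher (5.71%) and 917 lower (6.29%) in P2-treated than in untreated cells. Of the 1052 rises in p53-/- cells, 943 (89.6%) had the same sign in p53+/+ cells and 379 (36%) were called there. Of the 974 falls, 875 (89.8%) had the same sign and 481 (49.4%) were called. The share of all tested probes with the same sign is not given here, so the shares of same sign have no background. Across all tested probes the effects in the 2 genotypes, which share no array but were fitted and normalized together, correlated with r = 0.624, and with r = 0.652 against untreated replicate 2 alone, as a description over probes, which are not independent. Of the probes gained and lost, 68 of 480 and 29 of 100 changed detection the same way in p53+/+ cells, where the share of gains and losses over all probes is likewise not given.

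The difference between the P2 effects (p53-/- minus p53+/+) was itself tested, and limma called 0 probes (0.0%), while 2383 had an unadjusted p under 0.05, and the lowest adjusted p was 0.0739. This count depended on the processing, since 6 of the other settings tried called between 73 and 466 probes, and 993 were called without p53-/- untreated replicate 2 and 87 without p53+/+ P2 replicate 1. Of the 15 largest rises 13, and of the 15 largest falls 14, were also called in the same direction in p53+/+ cells. PROM1 was at 9.25 and 9.16 in P2-treated p53+/+ cells, against 4.55 and 4.56 in untreated p53+/+ cells, where it was undetected as in untreated p53-/- cells, and was at least 21.5-fold higher with P2. TM4SF18 was detected on neither P2-treated p53+/+ array and was at least 25.6-fold lower with P2 there, and ZBED2 fell by 3.92 log2. CDKN1A rose by 2.01 log2 in p53+/+ cells, with a difference of effects of -0.28 ± 0.15 (adjusted p = 0.402).

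MDM2, not called in p53-/- cells, had an effect of 0.46 log2 in p53+/+ cells that was called there (adjusted p = 0.0348), with a difference of effects of -0.53 ± 0.16 that was not (adjusted p = 0.174). Some of the genes with the largest changes had effects that lay far apart between genotypes and also missed the threshold for the difference. FOXO3 differed by 1.59 ± 0.28 log2 between genotypes (adjusted p = 0.0762); it was at 8.05 and 7.58 in P2-treated p53+/+ cells, against 7.02 and 6.89 in untreated p53+/+ cells. TRIM16L differed by -2.19 ± 0.47 (adjusted p = 0.0989) and had 7.35 and 8.53 in P2-treated p53+/+ cells, against 7.79 and 7.63 in untreated p53+/+ cells. TNFRSF6B and CDC14B differed by 2.25 ± 0.80 and 2.20 ± 0.76 log2, and their probes were low on p53-/- untreated replicate 1.

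Some list members named above were called in p53-/- cells and had small effects in p53+/+ cells, chosen here after their values were seen. JAG2 had 0.013 log2 there and a difference of effects of -1.16 ± 0.17 (adjusted p = 0.0762). ITGA2 had -0.15 and a difference of 1.86 ± 0.33 (adjusted p = 0.0762), LCOR -0.085 and 2.07 ± 0.23 (adjusted p = 0.0739), and ZMAT3 0.24 and 1.53 ± 0.33 (adjusted p = 0.101). None of these differences passed the threshold, and a p that misses it does not show that the genotypes respond alike. Untreated, ITGA2 was at 6.35 and 6.88 in p53-/- cells, against 8.26 and 7.94 in p53+/+ cells. With P2 it was at 8.59 and 8.07, against 8.15 and 7.76. Untreated, ZMAT3 was at 6.97 and 7.47 in p53-/- cells, against 8.45 and 8.65 in p53+/+ cells. With P2 it was at 9.17 and 8.80, against 9.11 and 8.47. The levels of LCOR and JAG2 did not overlap between genotypes in either condition.

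**Figure D5:**
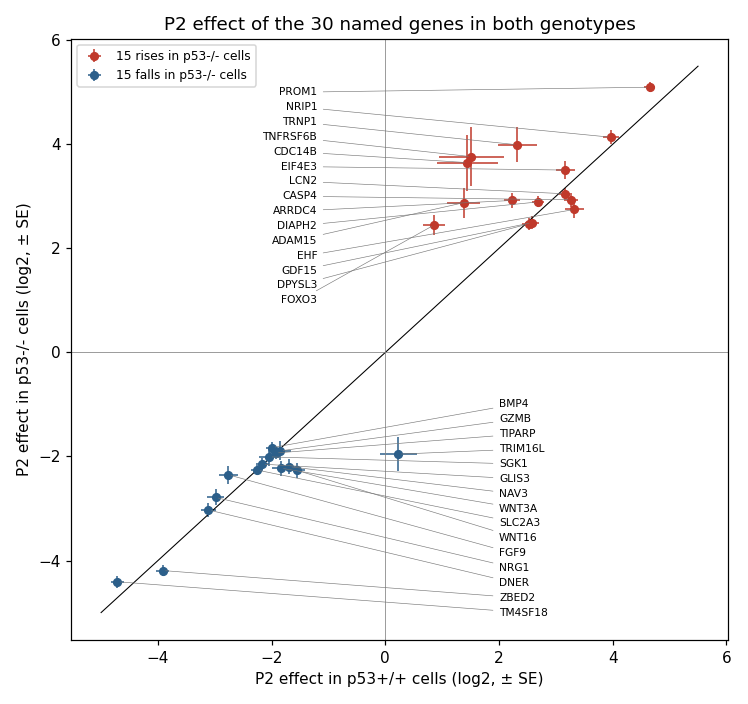
P2 effect of the 15 genes with the largest rises (red) and the 15 with the largest falls (blue) in p53-/- cells (y axis, log2) against their P2 effect in p53+/+ cells (x axis, log2), with lines of ± 1 SE and the line of equality. Of the 30 genes 27 are called in the same direction in p53+/+ cells; TRIM16L, CDC14B and TNFRSF6B are not.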

How the data were processed

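Total RNA of P2-treated (25 µM) and untreated HCT116 cells was turned into biotin-labelled cRNA for Illumina arrays, per the labels' protocols; the submitters' processing notes name GenomeStudio. The deposited table holds an intensity and, for every probe of each array, a detection p-value, with no background correction or scaling between arrays. The authors' deposited log2 values equalled quantile-normalized log2 intensities within 5e-09.

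From the intensities, background was corrected with normexp in limma 3.58.1 (R 4.3.3), which took the negative controls from the detection p-values (offset 16), and the log2 values were quantile-normalized. Tested were 14574 probes, and 9952 were left out. The 8 arrays were fitted with a mean for each group (4 residual and 5.15 prior degrees of freedom), and two-sided moderated p-values were adjusted with the Benjamini-Hochberg method across the tested probes. Replicate numbers were not used as pairs. Of the probes, 21834 carried 1 gene symbol and 2692 none, and symbols were updated through RefSeq. Each gene was counted by its brightest tested probe.

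The groups of genes and the rule for named genes were chosen with earlier results of these data known. Named were the 15 rises and 15 falls with the largest smaller effect of both fits. These had to be called in both fits, with no overlap between P2 and untreated arrays. Also named were up to 4 members per direction of each list with at least 3 calls in both fits, the 5 largest gains and losses of detection, CDKN1A and MDM2. Other named genes were chosen after their values were seen. Of 1536 list members in 50 lists, 1194 were measured. The fit was tested on simulated data. Figures come from matplotlib 3.10.9 (Python 3.11.15).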

Additional observations from a re-analysis of the deposited data

How the results depend on the processing

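Every one of the 30 genes with the largest changes kept its direction and its call under each alternative in which its probe was measured, and 8 of the 30 were measured where all 8 arrays had to reach a detection p under 0.01. The 30 were chosen from the same arrays for large effects called with and without untreated replicate 1, which is itself 1 of the alternatives. Their kept calls are therefore no independent check. Of 149 named genes, 44 lost a call in at least 1 alternative, 39 of them without 1 of the p53-/- arrays and 15 with median scaling, at adjusted p of 0.0503 to 0.312. The losses given beside single genes above are not always all of their losses. For example, SF3B3 lost its call in 4 alternatives, and DSG2 and SGO1 in 3 each. The effect of MDM2, never called, was -0.20 to 0.055 log2 with 1 p53-/- array left out, the last without untreated replicate 2. With only the 4 p53-/- arrays fitted, 2400 probes were called, 1245 of them lower. Leaving out 1 of the 8 arrays gave 1496 to 3898 called probes, 686 to 1857 higher and 810 to 2041 lower. Called list members were 229 without p53-/- untreated replicate 1, against 364 with all arrays. Detection was gained by 620 to 1041 probes and lost by 139 to 233 when 1 p53-/- array was left out.

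For the difference between genotypes, 0 probes were called with all settings as reported, 87 with that stricter filter, 466 with median scaling, 73 without background correction and from the authors' log2 values alike, 182 with robust moderation and a variance trend, and 0 to 993 without 1 array; the cause was not tested. Same-numbered arrays deviated together with r = -0.15 in the 2 p53-/- groups and 0.18 in the 2 p53+/+ groups, and between -0.19 and 0.20 over all 6 pairs of groups, so the numbers were not taken as pairs: with the replicate block 3524 probes were called for P2 and 0 for the difference, and with the numbers of the p53-/- untreated arrays crossed, an alternative chosen after seeing the data, 4151 and 296. Signal over background limits genes near the detection threshold, where a fold against an undetected group is given as at least its bound, and 2 arrays per group limit precision throughout.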

Other observations

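A few genes not yet named also changed in P2-treated p53-/- cells, and were chosen after their values were seen. The carbonic anhydrase gene CA2, a marker of differentiated colon epithelium, was at 10.20 and 10.12 in P2-treated cells, against 8.80 and 8.85 in untreated cells, a rise of 1.34 ± 0.10 log2 units (SE, 2 arrays in each group). It had the highest effect among 9 measured colon differentiation markers, whose median was 0.024 log2. Of these, 3 were higher and 1 lower with both controls, and 2 and 1 in both fits. EIF2S2, a subunit of the initiation factor that brings the first tRNA to the ribosome, fell by 0.96 ± 0.11 log2, and NOLC1, a nucleolar phosphoprotein from the ribosome biogenesis list, rose by 1.24 ± 0.14 log2.

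The histone gene H4C3 was bright in both groups, at 13.17 and 13.29 with P2, against 11.53 and 11.47 without, and rose by 1.73 ± 0.14 log2, while its effect in p53+/+ cells was 0.072 log2. Its protein is encoded by several near-identical gene copies, so the probe's gene is uncertain. Of the 868 genes that rose in both fits, 293 had other tested probes, and in 186 of these (63.5%) all probes had the same sign; of the 830 that fell, 204 had other probes and 131 (64.2%) had the same sign throughout. In 12 genes of the rises and 1 gene of the falls another probe was called in the opposite direction.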
